A study of Sus scrofa with 15 samples.

Results

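The genes described here are 22 genes of lipid enzymes and carriers measured in the mammary gland of sows around parturition. They were chosen by symbol. A gene was taken when the annotated gene list of the study paired its Ensembl identifier with a symbol of one of the families of acyl-CoA synthetases, thioesterases, oxidases, dehydrogenases and thiolases, elongases, desaturases, fatty acid binding proteins, apolipoproteins, ATP-binding cassette (ABC) proteins, lipases, acyltransferases, oxysterol binding proteins, hydroxysteroid dehydrogenases, cytochromes P450 or perilipins, and when it reached 1 CPM (the count per 1000000 counts of the library) in at least 3 of 15 libraries. The symbol pattern also covered the families of HMGCS1 and INSIG1. In all, 23 symbols matched, PLIN5 was left out, and the remaining 22 reached 1 CPM in all 15 libraries. They were taken from 13503 genes that passed this filter, of 25322 in the tables, and only 1772 of the 13503 carried a paired symbol, so that these 22 are not all genes of their families. The rule itself uses no measured value apart from the filter.

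Mammary tissue was biopsied from 3 second-parity Danish Landrace × Yorkshire sows at 14, 10, 6 and 2 d prepartum and at 1 d postpartum, which gave 3 libraries of messenger RNA at each of 5 time points. There was no separate control group, and 14 d prepartum was the reference. The 3 sows differed in their diet, and a difference between sows cannot be told apart from one between diets. They were chosen by the study for their high colostrum yield. Their diets held alfalfa meal with trioctanoate, sugar beet pulp with palm fatty acid distillate, or alfalfa meal with soybean oil. By the approximate gestation days in the paper, these diets were assigned after the reference biopsies. A change from the reference to time points after that assignment cannot be told apart from an effect of the new diet, which was not tested. The total count per library lay between 10782343 and 19952918, and it was lowest in sow 1 at 1 d postpartum. In that library 53.8% of all counts fell on its 10 highest genes, against 16.6% to 35.7% in the other libraries, and its scaling factor by the trimmed mean of M values (TMM) was 0.545. RNA integrity as listed by the study rose over time and cannot be told apart from it. Values are given in the order sow 1, sow 2, sow 3. In whole tissue, fewer cells of a type and less RNA per cell cannot be told apart.

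The mammary gland turns from growth to secretion around parturition, and fat then becomes the main energy source of colostrum and milk. Secretory epithelial cells build triglycerides from fatty acids that they take from blood or make from acetyl-CoA, and they make cholesterol from acetyl-CoA through the mevalonate pathway. Acetate and short or branched acyl groups are activated to or oxidized as CoA esters in mitochondria and peroxisomes, and ABC proteins use ATP to move lipids, peptides, heme compounds or ions across membranes.

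The family names hold genes of unlike function. Of the 22 genes 8 were ABC proteins, 4 were hydroxysteroid dehydrogenases or related short-chain dehydrogenases, and 1 was a cytochrome P450 (CYP2R1). ABCF1 acts in translation, ABCC9 is the sulfonylurea receptor subunit of a potassium channel, ABCB9 carries peptides into lysosomes and APOOL is a subunit of the MICOS complex of the inner mitochondrial membrane, so these are no lipid enzymes. In 21 of 22 cases the reference table of RefSeq gave the same symbol, and in 19 cases the Ensembl name table did. The exception in RefSeq was the identifier paired with ABCC1, which is described below under that paired name.

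Most calls among the 22 genes fell at 1 d postpartum, and edgeR made none before 2 d prepartum. In -10vs-14 and -6vs-14 edgeR called 0 of 22 genes, as it called 0.0% of all genes in each. At an unadjusted p of 0.05 or less there were 0 and 1 of 22, against 2.19% and 8.81% of all genes, and in -6vs-14 DESeq2 called 1 of 22 (ACSS1), against 0.904% of all genes. In -2vs-14 edgeR called 2 of 22 genes, against 2.84% of all genes, and both were upregulated, as were 1.95% of all genes. In +1vs-14 it called 14 of 22 genes (63.6%), against 23.7% of all genes tested and 27.6% of all genes with a paired symbol. These were 7 upregulated and 7 downregulated genes, against 13.3% and 10.4% of all genes. In +1vs-2 it called 10 of 22 genes, against 15.2% of all genes, with 5 upregulated and 5 downregulated, against 8.01% and 7.24% of all genes. In -2vs-6 it called 0 of 22 genes against 0.00741% of all genes, with 2 of 22 at an unadjusted p of 0.05 or less, against 7.98% of all genes. DESeq2 called none of the 22 in -10vs-14 and -2vs-6 either. A call required edgeR's quasi-likelihood test to give a p of 0.05 or less for time as a whole and for the single comparison, each after Benjamini-Hochberg adjustment over 13503 genes.

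The median log2 fold change of the 22 genes in +1vs-14 was 0.14, against 0.02 over all genes tested, and the single values ran from -1.18 to 3.10. The median absolute log2 fold change was 0.60 against 0.38 over all genes. Without the library of sow 1 at 1 d postpartum, the median of the 22 genes was -0.28 and 12 of 22 were called, against 28.5% of all genes. All comparisons with 14 d prepartum share the same 3 reference libraries. The directions depend on the TMM scaling: with library totals alone, the median of all genes shifted to -0.64 in +1vs-14 and to -0.42 in -2vs-14, and the calls of the 22 genes in +1vs-14 became 3 upregulated and 9 downregulated, against 42.1% of all genes called. In +1vs-2 they became 3 upregulated and 7 downregulated, against 16.2% of all genes called, and in -2vs-14 there were 0, against 10.6%. The directions below are relative to the TMM scaling, under which the median of all genes lay between -0.01 and 0.02 in each comparison.

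**Figure D1:**
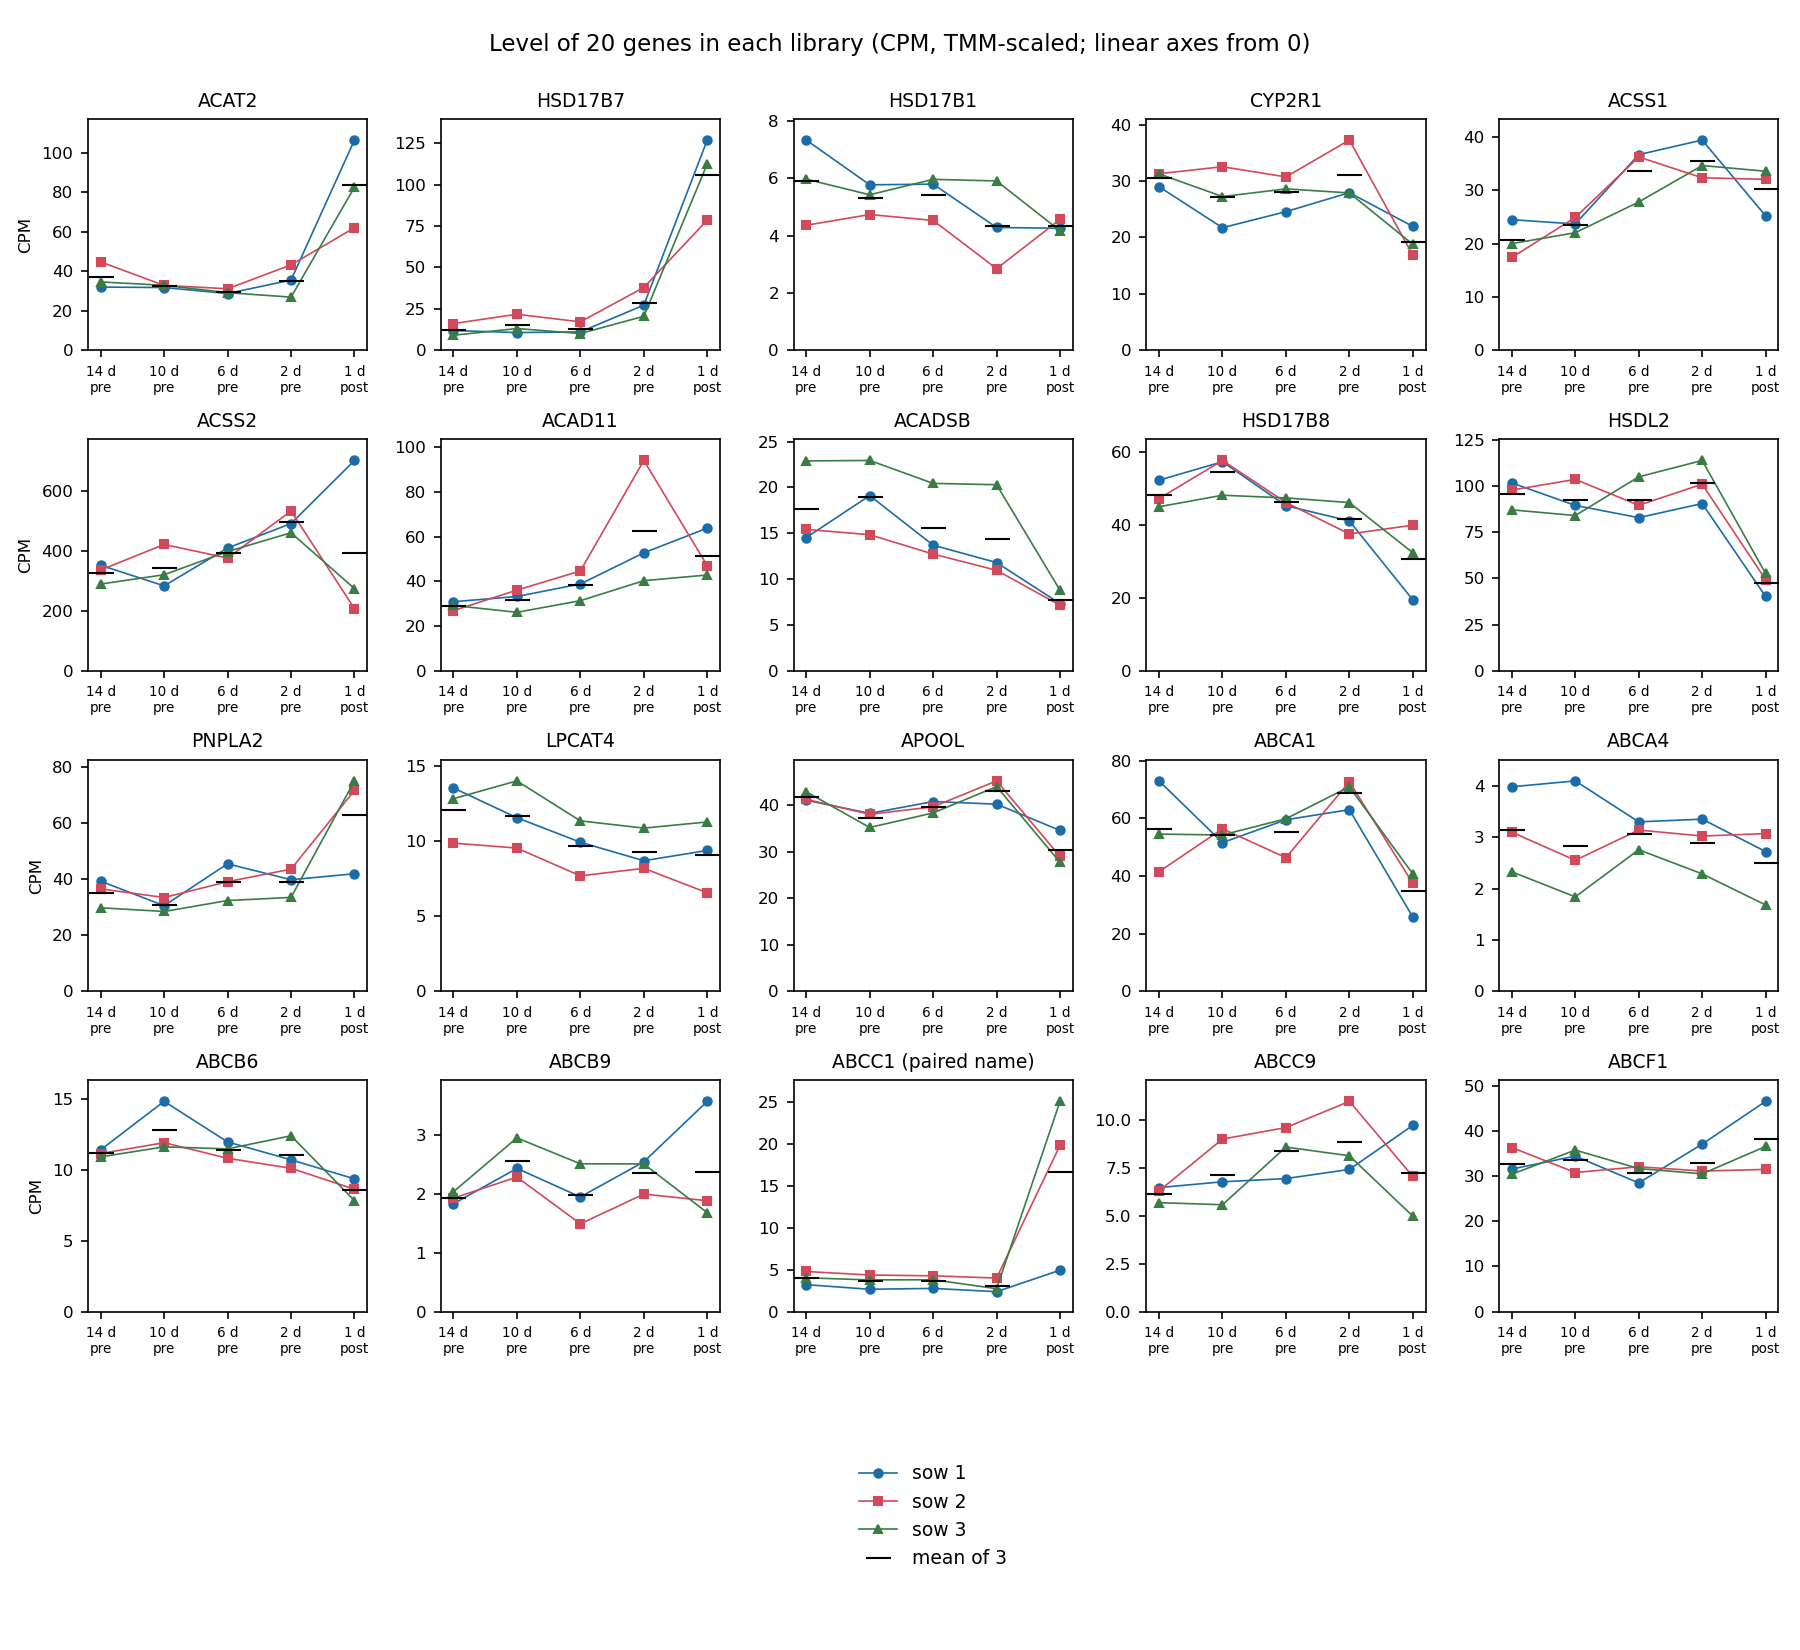
Level of 20 of the 22 genes in every library, in CPM on linear axes that start at 0, against time point. Each symbol is 1 library, lines join the libraries of a sow, and black dashes are the means of 3 libraries. HSD17B7 rises from 12.4 to 106 CPM on average, HSDL2 falls from 95.5 to 47.4 CPM, and ACSS2 splits at 1 d postpartum into 703 CPM in sow 1 and 207 and 274 CPM in the other sows.

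Among the enzymes of sterol synthesis, HSD17B7 and ACAT2 rose at 1 d postpartum. HSD17B7, a keto reductase of the late steps of cholesterol synthesis that can also make estradiol, had 11.9, 16.1 and 9.07 CPM at 14 d prepartum and 127, 78.7 and 113 CPM at 1 d postpartum. The groups did not overlap, as they did not for 39.0% of all genes in this comparison. Its log2 fold change in +1vs-14 was 3.10 ± 0.33 (SE, n = 3 per time point), a fold of 8.55 (edgeR adjusted p = 3.71e-05), which was the highest of the 22 genes. HSD17B7 was still at 11.1, 17.2 and 10.1 CPM at 6 d prepartum and had 27.3, 37.9 and 20.5 CPM at 2 d prepartum. Every sow was thus higher at 2 d than at 14 d prepartum, by 1.19, 1.24 and 1.18 on the log2 scale. In -2vs-14 the log2 fold change was 1.21 ± 0.32 with an edgeR adjusted p of 0.0604, which missed the threshold, and a fit that blocked on sow gave 1.20 ± 0.26 with an adjusted p of 0.0161, which passed it. Without sow 1 at 1 d postpartum the adjusted p was 0.0318, and without sow 3 at 2 d prepartum it was 0.0387. From 2 d prepartum to 1 d postpartum it rose by a further 1.89 ± 0.32 (edgeR adjusted p = 0.00148).

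ACAT2, the cytosolic thiolase that joins 2 acetyl-CoA at the start of the mevalonate pathway, stood between 26.9 and 44.8 CPM in the 12 prepartum libraries. At 1 d postpartum it had 107, 62.1 and 82.7 CPM, all above every prepartum library. It rose by 1.17 ± 0.20 in +1vs-14 (edgeR adjusted p = 0.000655) and 1.24 ± 0.20 in +1vs-2 (edgeR adjusted p = 0.00104).

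The other sterol genes with a paired name held 4 further enzymes of synthesis and 3 genes of handling. In +1vs-14, 3 of these 7 were upregulated and 0 downregulated, against 13.3% and 10.4% of all genes. The median log2 fold change of the 7 was 0.44, against 0.02 over all genes. The 3 were MVK (mevalonate kinase, 1.41 ± 0.31), FDPS (farnesyl diphosphate synthase, 1.90 ± 0.36) and SQLE (squalene epoxidase, 1.98 ± 0.36), with edgeR adjusted p of 0.00358, 0.00153 and 0.00103. PMVK (phosphomevalonate kinase) had 0.44, LIPA (lysosomal acid lipase) -0.45 and ERLIN1 -0.16, and none of these was called. In -2vs-14 none of the 7 was called, whereas with the sow as a block 1 was, and without sow 1 at 1 d postpartum 2 were (MVK and FDPS). MVK had values between 9.45 and 10.4 CPM at 2 d prepartum against a mean of 5.29 ± 0.37 CPM at 14 d prepartum.

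The sows differed in the size of this rise. Over 6 enzymes of sterol synthesis (ACAT2, MVK, PMVK, FDPS, SQLE and HSD17B7), the within-sow change from 14 d prepartum to 1 d postpartum was smallest in sow 2 for all 6. It was largest in sow 1 for 4 and in sow 3 for 2. For FDPS the log2 ratios were 2.71, 0.50 and 1.86, and for MVK they were 1.92, 0.49 and 1.45. All of these genes were above 0 in every sow. With 1 library per sow and time point these differences between sows carry no test.

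**Figure D2:**
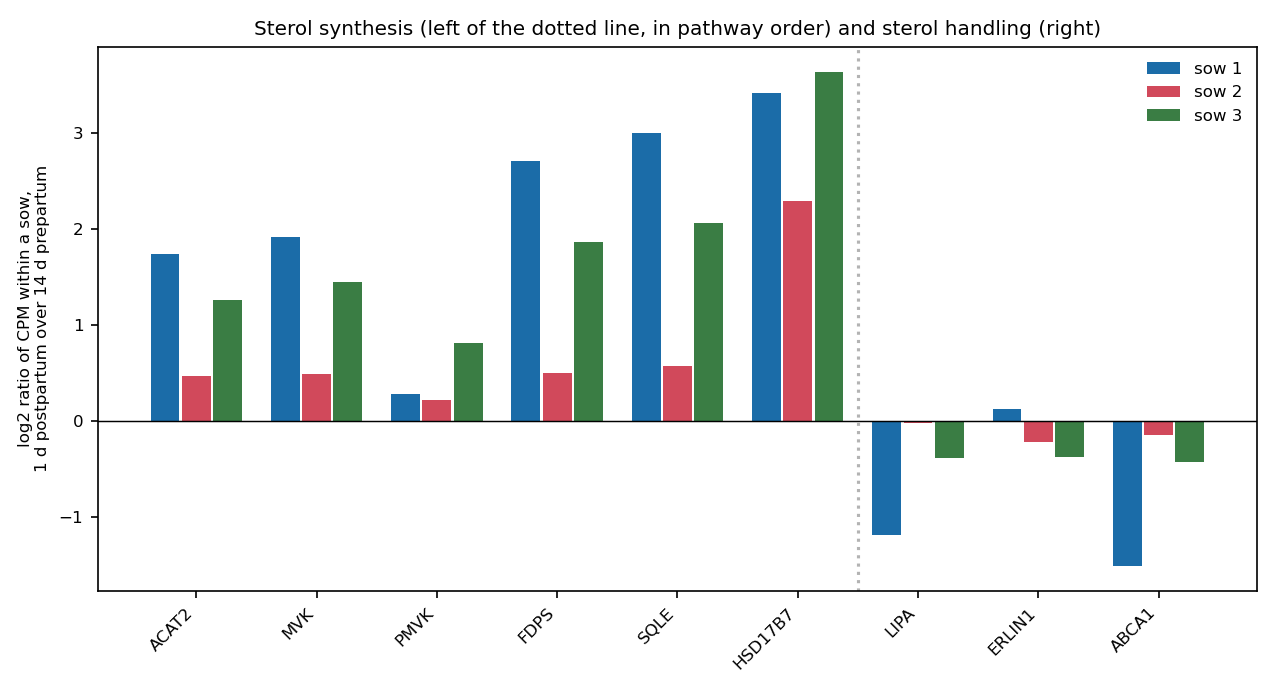
Within-sow change of sterol genes from 14 d prepartum to 1 d postpartum, as the log2 ratio of CPM (y axis), with 1 bar per sow and genes along the x axis. Left of the dotted line are 6 enzymes of synthesis in pathway order, where sow 2 has the smallest bar each time, and right of it are LIPA, ERLIN1 and ABCA1.

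ABCA1, which exports cholesterol and phospholipids to apolipoprotein, moved the other way. It had 73.0, 41.5 and 54.5 CPM at 14 d prepartum and 63.0, 72.7 and 70.9 CPM at 2 d prepartum, whereas 1 d postpartum gave 25.7, 37.4 and 40.7 CPM. The 3 postpartum libraries lay below all 12 earlier ones. It fell by 0.98 ± 0.20 in +1vs-2 (edgeR adjusted p = 0.00414) and by 0.69 ± 0.20 in +1vs-14 (edgeR adjusted p = 0.0159). The call in +1vs-14 was lost without sow 1 at 14 d prepartum and without sow 2 at 1 d postpartum, with values of -0.88 to -0.47 over the left-out fits, and the latter also ended that in +1vs-2, with values of -1.13 to -0.83. The identifier lies on the plus strand of chromosome 1 (275474265 to 275507927, Sscrofa10.2) and has no name in the Ensembl table, which gives the name ABCA1 to another gene on the minus strand of the same chromosome. That gene had between 2 and 15 counts per library and did not pass the filter.

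The remaining steroid enzymes were lower or uncalled. CYP2R1, the vitamin D 25-hydroxylase, had 29.0, 31.3 and 31.3 CPM at 14 d prepartum and 21.96, 16.9 and 18.8 CPM at 1 d postpartum, and the groups did not overlap. It fell by 0.68 ± 0.17 in +1vs-14 (edgeR adjusted p = 0.00724) and by 0.70 ± 0.17 in +1vs-2 (edgeR adjusted p = 0.0109). The call was lost in 5 of 15 left-out fits of each comparison, those without sow 2 or sow 3 at 14 d prepartum, sow 3 at 10 d prepartum, or sow 2 or sow 3 at 1 d postpartum, with values of -0.79 to -0.59 in +1vs-14. HSD17B1, which reduces estrone to estradiol, stood low at 5.89 ± 1.49 CPM at 14 d prepartum and 4.33 ± 0.21 CPM at 1 d postpartum (mean ± SD, n = 3). Its log2 fold change of -0.44 ± 0.26 was not called (edgeR adjusted p = 0.203).

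The genes of acetate activation held 1 of the 2 calls made before parturition. ACSS1, the mitochondrial acetyl-CoA synthetase, had 24.5, 17.4 and 19.99 CPM at 14 d prepartum. At 6 d it had 36.7, 36.2 and 27.8 CPM and at 2 d 39.4, 32.3 and 34.6 CPM. All libraries of 6 d and 2 d prepartum lay above those of 14 d, as the libraries of 18.9% and 29.3% of all genes tested lay above or below those of 14 d. Its change on the log2 scale was 0.70 ± 0.15 in -6vs-14, where edgeR gave an adjusted p of 0.181 and DESeq2 called the gene, and 0.78 ± 0.15 in -2vs-14 (edgeR adjusted p = 0.0206). The call in -2vs-14 was lost without sow 2 or sow 3 at 14 d prepartum and without sow 1 or sow 2 at 2 d prepartum, with values of 0.67 to 0.92. At 1 d postpartum ACSS1 had 25.2, 32.0 and 33.6 CPM, and the log2 fold change against 14 d was 0.56 ± 0.16 (edgeR adjusted p = 0.0145). That call was lost without sow 2 or sow 3 at 14 d prepartum and without sow 3 at 1 d postpartum, with values of 0.44 to 0.70. With library totals alone the value in +1vs-14 was -0.06.

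ACSS2, the cytosolic and nuclear acetyl-CoA synthetase, had the highest level per length of the 22 genes at 14 d prepartum, with 62.8 ± 6.30 CPM per kilobase of gene length (RPKM). It had 353, 337 and 290 CPM at 14 d prepartum, then 492, 534 and 461 CPM at 2 d prepartum, and finally 703, 207 and 274 CPM at 1 d postpartum. The groups of 14 d and 2 d prepartum did not overlap, whereas sow 1 went above and the other sows below them at the end. In -2vs-14 the log2 fold change was 0.60 ± 0.33 and was not called (edgeR adjusted p = 0.306). In +1vs-14 it was 0.27 ± 0.33 (edgeR adjusted p = 0.555). In +1vs-2 it was -0.33 ± 0.33 (edgeR adjusted p = 0.536). The calls turned on sow 1 at 1 d postpartum. Without that library ACSS2 was called in -2vs-14 with the log2 fold change still at 0.60 (adjusted p = 0.0225). It was then called at -0.45 in +1vs-14 (adjusted p = 0.0452), and at -1.05 in +1vs-2 (adjusted p = 0.000543).

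In the list of other genes of fatty acid synthesis and acyl supply, 1 of 6 was called in +1vs-14 and 0 in -2vs-14. Over all genes the shares were 23.7% and 2.84%. The median log2 fold changes of the 6 were -0.01 and 0.08. The gene called was ACACB, an acetyl-CoA carboxylase tied to the control of fatty acid oxidation, with 1.88 ± 0.43 (edgeR adjusted p = 0.00491). It had a mean of 3.07 ± 0.85 CPM at 14 d prepartum and 4.26, 12.9 and 15.9 CPM at 1 d postpartum. With the sow as a block 2 of 6 were called in each of these comparisons. The 5 genes not called in +1vs-14 were SLC25A1, SCD5, HACD3, CBR4 and MPC2. The list holds no FADS desaturase and no long-chain acyl-CoA synthetase (ACSL), since none had a paired name. Among those, picked after their values were seen, FADS1 changed within the sows by 2.55, 1.41 and 2.38 and ACSL3 by 4.09, 1.40 and 2.08 in +1vs-14. ACSL1 and ACSL4 differed in direction between sows, with -0.44, -0.003 and 0.45 and with 1.09, -0.45 and -0.46.

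All 4 genes grouped as acyl-CoA, mitochondrial or peroxisomal dehydrogenases were called in +1vs-14, 3 of them downregulated. Over all genes 23.7% were called in this comparison, and 10.4% were called downregulated. ACADSB, which oxidizes short branched acyl-CoA from isoleucine, had 14.5, 15.4 and 22.9 CPM at 14 d prepartum and 7.32, 7.14 and 8.77 CPM at 1 d postpartum. The 3 postpartum libraries lay below all others. It fell by 1.18 ± 0.28 in +1vs-14 (edgeR adjusted p = 0.0062) and by 0.88 ± 0.28 in +1vs-2 (edgeR adjusted p = 0.047). Leaving out any 1 of the libraries of 1 d postpartum ended the call in +1vs-14, with a value of -1.16 without sow 1. In +1vs-2, 9 of 15 left-out fits ended the call, with values of -1.05 to -0.55.

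HSDL2, a peroxisomal short-chain dehydrogenase, had 102, 97.8 and 87.1 CPM at 14 d prepartum and 90.5, 101 and 114 CPM at 2 d prepartum. At 1 d postpartum it had 40.2, 49.3 and 52.6 CPM, below every earlier library, and the within-sow changes from 14 d were -1.34, -0.99 and -0.73 on the log2 scale. The fitted change was -1.01 ± 0.13 in +1vs-14 (edgeR adjusted p = 0.000151) and -1.10 ± 0.14 in +1vs-2 (edgeR adjusted p = 0.000235). HSD17B8, a ketoacyl reductase subunit of mitochondrial fatty acid synthesis, had 52.2, 47.2 and 44.9 CPM at 14 d prepartum and 19.4, 39.9 and 32.3 CPM at 1 d postpartum. Its log2 fold change was -0.64 ± 0.19 (edgeR adjusted p = 0.018), and without sow 1 at 1 d postpartum it was -0.43 and still called. Of 15 left-out fits 10 ended the call, with values of -0.87 to -0.43.

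ACAD11, an acyl-CoA dehydrogenase of long and hydroxylated acyl groups, was the 1 gene of this group that rose. It had 30.9, 26.9 and 29.2 CPM at 14 d prepartum. Values of 52.8, 94.1 and 40.3 CPM followed at 2 d prepartum, and 1 d postpartum gave 63.8, 47.0 and 42.8 CPM. Both later groups lay above 14 d prepartum, and at 2 d prepartum sow 2 stood far above the other sows. It rose by 1.11 ± 0.26 on the log2 scale in -2vs-14 (edgeR adjusted p = 0.0406) and 0.81 ± 0.26 in +1vs-14 (edgeR adjusted p = 0.029). In -2vs-14, 9 of 15 left-out fits ended the call, with values of 0.68 to 1.34. In +1vs-14 it was lost without any 1 library of 14 d prepartum and without sow 1 at 1 d postpartum, where the value was 0.61. Of 8 other genes of acyl-CoA oxidation, 1 was called in +1vs-14, ECI2 (an enoyl-CoA isomerase), with 0.49 ± 0.13 (edgeR adjusted p = 0.00913). The median of the 8 was 0.19, and 0 were called in -2vs-14. The shares over all genes were 23.7% in +1vs-14 and 2.84% in -2vs-14. ECHS1, IVD, CRAT, PHYH, DBT, MCEE and ALDH6A1 were not called in +1vs-14.

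**Figure D3:**
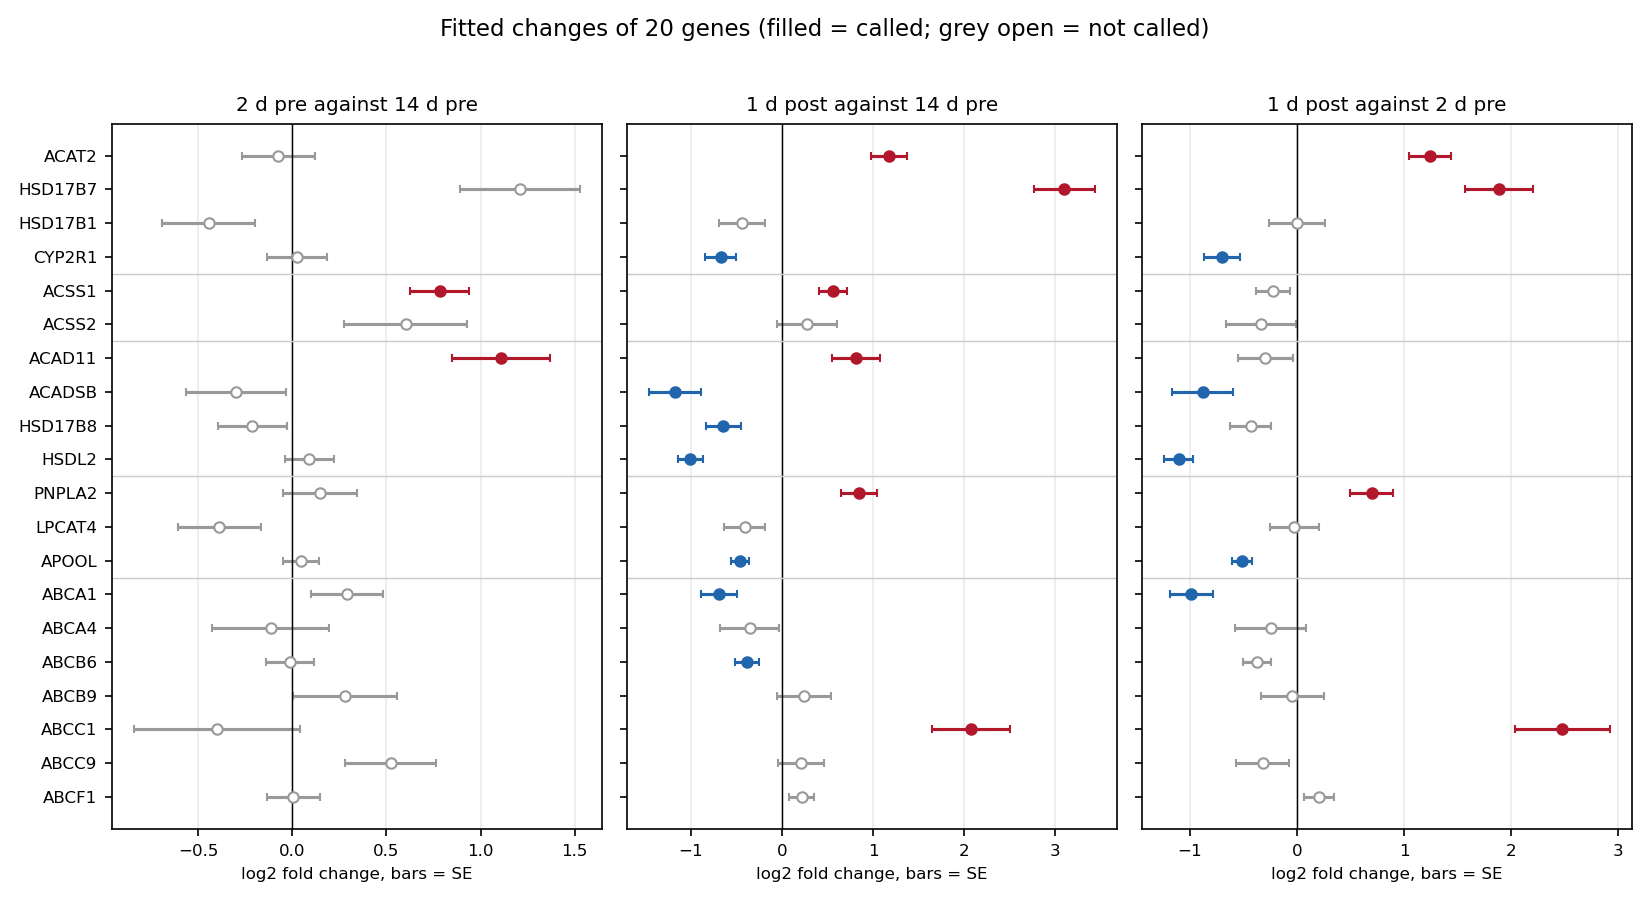
Fitted log2 fold changes of 20 of the 22 genes (x axis) with their SE as bars, in -2vs-14, +1vs-14 and +1vs-2, with 1 gene per row and grey lines between roles. Filled red and blue points were called up or down and open grey points were not; the left panel has 2 filled points, the middle panel 13 and the right panel 9.

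PNPLA2, the adipose triglyceride lipase, had 39.2, 36.5 and 29.7 CPM at 14 d prepartum and 41.9, 71.6 and 75.0 CPM at 1 d postpartum. Sow 1 barely left the range of 14 d prepartum, with a within-sow change of 0.09, whereas sows 2 and 3 were higher by 0.97 and 1.33. Over the 3 sows it was 0.84 ± 0.20 in +1vs-14 (edgeR adjusted p = 0.0058) and 0.70 ± 0.20 in +1vs-2 (edgeR adjusted p = 0.0277). Without sow 1 at 1 d postpartum the value in +1vs-14 was 1.04, and the call was lost without sow 2, or without sow 3 at that time point, with values of 0.69 to 1.04 over all fits. In +1vs-2 it was lost without either of these and without sow 1 or sow 3 at 2 d prepartum, with values of 0.54 to 0.90. LPCAT4, a lysophospholipid acyltransferase, had 13.5, 9.85 and 12.8 CPM at 14 d prepartum and 9.36, 6.55 and 11.3 CPM at 1 d postpartum. The groups overlapped, yet every sow was lower by itself, by -0.53, -0.59 and -0.19. The log2 fold change was -0.41 ± 0.23 (edgeR adjusted p = 0.184), and a fit that blocked on sow gave -0.43 ± 0.13, which was called (adjusted p = 0.0172).

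Of 5 other genes of lipid droplets and lipolysis, 3 were upregulated in +1vs-14 and 0 in -2vs-14, against 13.3% and 1.95% of all genes. The medians of the 5 were 2.49 and 0.51. CIDEA, a lipid droplet protein of fat cells and of lactating mammary epithelium, was at 0.523 ± 0.41 CPM at 14 d prepartum and at 122, 14.1 and 31.1 CPM at 1 d postpartum. Its log2 fold change was 6.69 ± 0.80 (edgeR adjusted p = 7.53e-05), and without sow 1 it was 5.40. CIDEB rose by 2.49 ± 0.48 (edgeR adjusted p = 0.0016). LIPG, the endothelial lipase, had 34.4 CPM in sow 1 and 3.47 and 4.68 CPM in the other sows at 1 d postpartum, so that its value of 2.64 ± 0.80 (edgeR adjusted p = 0.0223) became 0.88 (adjusted p = 0.269) without that library. CIDEC and BSCL2 were not called, whereas a fit that blocked on sow called 4 of these 5 genes, with BSCL2 at -0.28 (adjusted p = 0.0257).

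APOOL had the smallest SE of the 14 genes called in +1vs-14. It stood between 35.2 and 45.2 CPM in all prepartum libraries and at 34.6, 29.0 and 27.7 CPM at 1 d postpartum, below every earlier library. It fell by 0.46 ± 0.10 in +1vs-14 (edgeR adjusted p = 0.00275) and by 0.51 ± 0.10 in +1vs-2 (edgeR adjusted p = 0.00298).

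Among the 8 ABC proteins, 1 rose (the gene paired with ABCC1) and 2 fell (ABCA1 and ABCB6) in +1vs-14, with a median log2 fold change of 0.14. In the same comparison 13.3% of all genes were upregulated and 10.4% downregulated. ABCC1 is a multidrug and glutathione conjugate exporter of the plasma membrane, but RefSeq lists the entry of this identifier under a locus symbol without a family name, and the Ensembl table gives the name ABCC1 to another gene. The gene measured here lies on chromosome 13 (189414690 to 189546760, plus strand, Sscrofa10.2). It had 3.21, 4.78 and 4.03 CPM at 14 d prepartum, stayed at or below 4.36 CPM until 2 d prepartum, and had 4.94, 19.8 and 25.1 CPM at 1 d postpartum. Sow 1 lay just above the range of the earlier libraries and sows 2 and 3 far above it. It rose by 2.08 ± 0.43 in +1vs-14 (edgeR adjusted p = 0.00248) and 2.48 ± 0.44 in +1vs-2 (edgeR adjusted p = 0.00208), and without sow 1 it was 2.47 and 2.87. The other gene, which Ensembl names ABCC1, had 6.49 ± 0.82 CPM at 14 d prepartum and 8.36 ± 3.25 CPM at 1 d postpartum.

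ABCB6, a mitochondrial and lysosomal porphyrin transporter, had 11.4, 11.2 and 10.9 CPM at 14 d prepartum and 9.36, 8.63 and 7.82 CPM at 1 d postpartum. The groups did not overlap, and it fell by 0.38 ± 0.13 (edgeR adjusted p = 0.0407). Of 15 left-out fits 12 ended this call, with values of -0.46 to -0.33. Of 5 other genes of heme and iron-sulfur cluster synthesis (PPOX, UROS, NFS1, GLRX5 and IREB2), 0 were called in -2vs-14 and +1vs-14. Their medians were 0.04 and -0.14, and 2.84% and 23.7% of all genes were called.

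A further 4 ABC proteins were not called in any comparison. ABCF1 stood between 28.5 and 46.6 CPM, with its highest value in sow 1 at 1 d postpartum. ABCC9 had a mean of 6.14 ± 0.41 CPM at 14 d prepartum, against 8.83 ± 1.88 CPM at 2 d, groups that did not overlap, with a log2 fold change of 0.52 ± 0.24 (edgeR adjusted p = 0.23). ABCA4, a retinoid transporter known from photoreceptors, and ABCB9 were the lowest of the 22 genes per length, with 0.427 ± 0.11 and 0.590 ± 0.03 RPKM at 14 d prepartum. ABCA4 had between 16 and 91 counts per library and ABCB9 between 19 and 61. Whether this depth hid smaller changes was not tested.

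Per length, the order of the 22 genes changed between the first and the last time point. At 14 d prepartum ACSS2 was followed by HSDL2 at 42.7 ± 3.37, HSD17B8 at 34.7 ± 2.69 and APOOL at 29.9 ± 0.72 RPKM, each more than 1 SD apart. At 1 d postpartum ACSS2 stood at 76.1 ± 51.8, HSD17B7 at 67.1 ± 15.7, ACAT2 at 52.8 ± 14.0 and PNPLA2 at 28.7 ± 8.32 RPKM. The ranges of mean ± SD of ACSS2, HSD17B7 and ACAT2 overlapped. Within each sow HSD17B7 stood above ACAT2, with 80.3, 49.7 and 71.2 against 67.1, 39.1 and 52.1 RPKM. ACSS2 had 135, 39.9 and 52.8 RPKM, so that its place differed between sows. HSD17B7 had held rank 12 at 14 d prepartum with 7.81 ± 2.23 RPKM. The spread between libraries was largest at 1 d postpartum. The coefficient of variation over 3 libraries there had a median of 23.1% over the 22 genes, against 11.9% at 14 d prepartum. Total counts at 1 d postpartum were 10782343, 11416874 and 15744454, and count noise was not separated from a difference between sows.

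**Figure D4:**
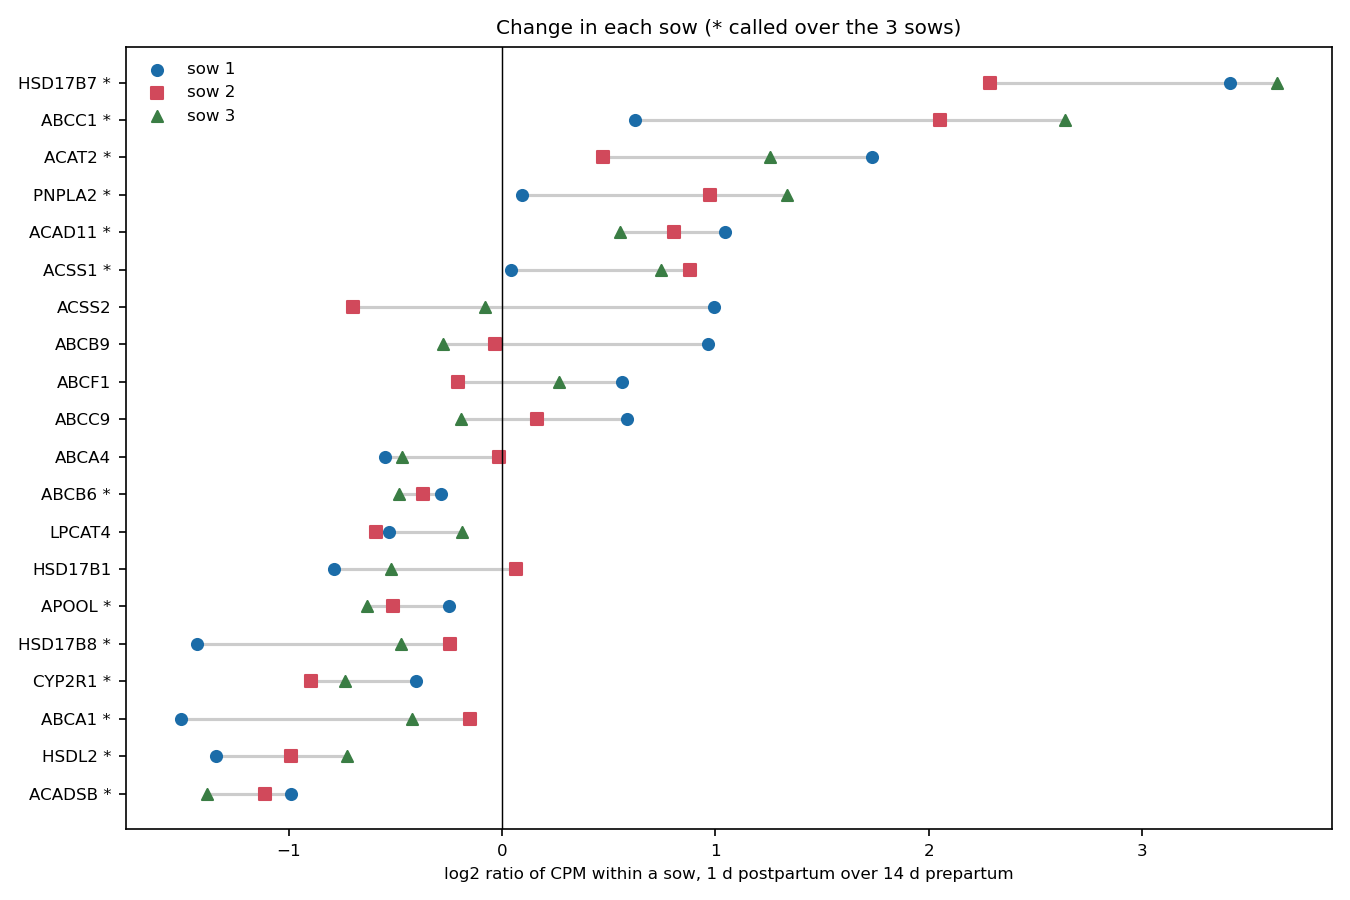
Change of 20 of the 22 genes within each sow from 14 d prepartum to 1 d postpartum, as the log2 ratio of CPM (x axis), with genes in rows ordered by the fitted change, 1 symbol per sow and a grey bar over their range. An asterisk marks the 13 of these 20 genes that were called, and in each of the 13 all 3 sows lie on the same side of 0.

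Of the 14 genes called in +1vs-14, 13 changed in the same direction in all 3 sows. The 7 upregulated genes had within-sow changes with a median of 1.05 in sow 1, 0.88 in sow 2 and 1.26 in sow 3, and the 7 downregulated genes had medians of -0.99, -0.51 and -0.63. The genes ABCC1 (paired name), ACAT2, APOOL, HSD17B7 and HSDL2 were called in +1vs-14 and in +1vs-2 whichever of 15 libraries was left out.

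Markers of other cells were set beside these changes. The summed level of 9 epithelial markers lay between 1283 and 1335 CPM at 14 d prepartum and was 717, 1180 and 1401 CPM at 1 d postpartum. At 2 d prepartum, where ACSS1 and ACAD11 were called, the sum was 738, 854 and 967 CPM, below 14 d prepartum in every sow. The median log2 fold change of the 9 markers in -2vs-14 was -0.74, and edgeR called 0 of them, whereas the fit that blocked on sow called 4 (KRT8, FOXA1, TFAP2C and AQP5), all lower. In +1vs-14, 2 of 9 rose (F11R and TFAP2A) and 2 fell (TFAP2C and FOXA1). The summed level of 6 adipocyte markers was 7.34 to 15.1 CPM at 14 d prepartum and 134, 30.2 and 49.6 CPM at 1 d postpartum, of which CIDEA made up 122, 14.1 and 31.1 CPM. HCAR1, SFRP5 and CIDEA rose, whereas CIDEC, MEDAG and EBF2 were not called. The 8 fibroblast markers summed to 3663 to 6832 CPM at 14 d prepartum and to 1856 to 3594 CPM at 1 d postpartum, with 1 upregulated (DDR2) and 1 downregulated (LUM) and a median of -0.51 on the log2 scale. With the sow as a block 5 of 8 were called in +1vs-14, of which 4 were lower, and 3 in -2vs-14, all lower, where edgeR without it called 0 and the sum at 2 d prepartum was 3388 to 3813 CPM. The 9 leukocyte markers summed to 327 to 378 and to 288 to 347 CPM, with 1 downregulated, or 2 when blocked on sow. The 8 endothelial markers summed to 234 to 275 and to 216 to 263 CPM, with 2 upregulated and 1 downregulated. Their part in the changes of the 22 genes was not tested.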

How the data were processed

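Messenger RNA libraries of mammary biopsies were sequenced as single reads. According to the study's methods and the file headers, adaptors were trimmed, STAR (2.5.1b) aligned the reads to the pig build Sscrofa10.2, and featureCounts of Subread (1.5.0) counted them per gene on the reverse strand. The values the authors deposited are raw counts per Ensembl gene, without normalization. The headers name the Ensembl annotation, whereas the methods name that of RefSeq.

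Here counts were scaled by TMM and tested with edgeR (4.0.16) quasi-likelihood over 13503 genes with at least 1 CPM in at least 3 of 15 libraries, with time as the only factor. CPM used TMM-scaled library sizes and RPKM the gene length of the tables. SE was the log2 fold change divided by the square root of F. Alternatives were DESeq2 (1.42.0), limma-voom (3.58.1), other scalings and filters, counts thinned to 10782343 per library, and each library left out. The scripts were tested on simulated data. No genome sequence was used.

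By the rule every one of the 22 genes was to be named, grouped by role. Of these, 20 are named, and the values of the other 2 and of 1 gene of the sterol list are not reported here, although counts and medians include them. The genes, lists and tests were chosen with earlier results of these data known. The lists of other pathway genes hold only genes with a paired name.

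The labels do not give the sow. It was taken from the study's alignment summary by the exact total count within a time point. Libraries of the same sow deviated together from the group means in all 30 pairs (correlation of at least 0.103, mean 0.396), so the sow pairs the libraries. The mean of -0.198 in the other pairs follows from subtracting the group means and adds no support. The 3 sows are the only replicates. The main fit did not use the pairing by sow. Its p-values rest on the spread within time points, pooled over 15 libraries of the same 3 sows as if these were independent.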

Additional observations from a re-analysis of the deposited data

How the results depend on the processing

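Over 12 other settings and 15 fits that each left out 1 library, the members called were 0 in -10vs-14 and in -2vs-6 throughout, and 0 in -6vs-14 except 1 with DESeq2. With 1 library left out they numbered 0 to 4 in -2vs-14, 7 to 14 in +1vs-14 and 6 to 11 in +1vs-2, against 37 to 1315, 2531 to 3853 and 1377 to 3014 of all 13503 genes. The lowest count in -2vs-14 came without sow 2 or sow 3 at 14 d and without sow 1 or sow 2 at 2 d prepartum, and those in +1vs-14 and +1vs-2 without sow 3 at 1 d postpartum. In -2vs-14 the count was 0 with library totals alone and 1 with thinned counts. With only the 6 libraries of a comparison 7 were called in +1vs-14 and 4 in +1vs-2, against 16.2% and 3.08% of all genes, where fewer samples gave the spread. With library totals alone ACSS1 turned to -0.057 in +1vs-14. ACSS2 in +1vs-14 ranged from -0.45 without sow 1 to 0.58 without sow 2 at 1 d postpartum, and the cause was not tested. Without sow 1 at 1 d postpartum ABCB6 (-0.44) was also called in +1vs-2, and without sow 2 HSD17B8 (-0.66) was. In -2vs-14 the sterol list gave 2 calls with DESeq2 or only 6 libraries and 1 with a random sow or a replicate block of sow. In -2vs-14 the fatty acid synthesis list gave 1 call with limma-voom on time only or without a filter, and 2 with DESeq2, a random or blocked sow, library totals or only 6 libraries. In -2vs-14 the heme list gave 1 with DESeq2 or library totals. In +1vs-14 the oxidation list gave 4 with library totals and 0 with only 6 libraries, and the fatty acid synthesis list gave 4 with library totals and 2 with DESeq2, a random or blocked sow, thinned counts or the comparison p alone. In +1vs-14 the heme list gave 3 with library totals and 1 with a random sow. With library totals 42.1% of all genes were called in +1vs-14, where their median was -0.64, and 10.6% in -2vs-14. With 1 library left out the lists gave 0 to 2 (sterol), 0 (oxidation, droplets and heme) and 0 to 2 (fatty acid synthesis) calls in -2vs-14, and 2 to 3, 1, 2 to 3 and 0 to 1 (sterol, oxidation, droplets and heme) and 0 to 1 (fatty acid synthesis) in +1vs-14. The sow as a replicate block changed no call of the 22 genes other than those of HSD17B7 in -2vs-14 and LPCAT4 in +1vs-14. Over all genes, the count in -2vs-14 was 384, and it was 1084 with DESeq2, 1172 with the sow as a replicate block and 1428 with library totals alone. With 3 sows the smallest changes could not be called, and genes under about 5 CPM had few counts.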

Other observations

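For the 22 genes the gene list of the study paired the Ensembl identifier with a symbol. The paper also names other genes of the pattern by symbol, such as CYP1A1, HMGCS1 and INSIG1, that lacked this pairing. The Ensembl name table holds further genes whose symbols match the same pattern, of which APOBEC genes were left out. The comparison with these further genes was added after the data had been seen. Of 149 such genes 102 passed the filter, and in +1vs-14 edgeR called 36 of them (35.3%), 27 upregulated and 9 downregulated, against 23.7% of all genes. In -2vs-14 it called 3 of 102 (2.94%), against 2.84% of all genes. A fit that blocked on sow called 14 of 102 in -2vs-14, against 8.68% of all genes. For +1vs-14 this fit gave 47 of 102, against 30.1% of all genes. Without sow 1 at 1 d postpartum edgeR called 16 of 102 in the former (9.74% of all genes) and 42 in the latter (28.5% of all genes). The names below were picked after their values were seen. HMGCS1, the synthase of the mevalonate pathway, had 70.8 to 95.0 CPM at 14 d prepartum and 2499, 188 and 502 CPM at 1 d postpartum, with a log2 fold change of 3.73 ± 0.68 (edgeR adjusted p = 0.00114) that was 2.09 without sow 1. INSIG1, the sterol sensor that restrains SREBP processing, rose from a mean of 29.3 ± 3.94 CPM to 937, 171 and 365 CPM. Its log2 fold change was 4.07 ± 0.50 (edgeR adjusted p = 8.66e-05). In both genes sow 1 was highest and sow 2 lowest, in the order of most sterol enzymes above. CYP51A1, the lanosterol demethylase, rose by 2.28 ± 0.42 (edgeR adjusted p = 0.00126).

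CYP1A1, the P450 induced through the aryl hydrocarbon receptor, peaked at 2 d prepartum. It was below 1 CPM in every library until 6 d prepartum, at 12.6, 32.1 and 90.3 CPM at 2 d prepartum and at 3.92, 5.75 and 1.54 CPM at 1 d postpartum. The log2 fold change was 6.27 ± 0.75 in -2vs-14 (edgeR adjusted p = 0.00254) and -3.62 ± 0.66 in +1vs-2 (edgeR adjusted p = 0.00221). ACSS3, a mitochondrial short-chain acyl-CoA synthetase, rose with ACSS1 before parturition, from 30.1 ± 3.67 CPM at 14 d to 62.2, 93.5 and 45.3 CPM at 2 d prepartum (log2 fold change 1.15 ± 0.24, edgeR adjusted p = 0.0255), and reached 100, 123 and 89.8 CPM at 1 d postpartum. HSD11B1, which regenerates cortisol, rose from a mean of 65.3 CPM to 182, 578 and 484 CPM, with a log2 fold change of 2.67 ± 0.45 (edgeR adjusted p = 0.000684). APOE fell by 1.09 ± 0.26 (edgeR adjusted p = 0.00554), from 414 to 478 CPM at 14 d prepartum to 323, 126 and 184 CPM at 1 d postpartum. ACAT1, the mitochondrial thiolase, fell by 0.56 ± 0.10 (edgeR adjusted p = 0.00105), whereas the cytosolic ACAT2 rose. The difference between these 2 changes was not tested.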
